A study of Mus musculus with 12 samples.

Results

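The 9 genes described here mark microglia, the resident macrophages of the brain, and were followed through forebrain development: the complement genes C1qa, C1qb and C1qc, the receptors Csf1r, Cx3cr1 and P2ry12, the adaptor Tyrobp, the integrin Itgam and the membrane protein gene Tmem119. They were chosen by name as genes known to mark microglia, and all 9 were among the 12158 genes of the authors' expression table. The study measured RNA in dissected whole forebrain of C57BL/6N mice at 3 embryonic ages, given in days (e12.5, e14.5 and e17.5), on the day of birth (P0), and in adults (P56 in the labels). Each stage has a wild-type and a heterozygous sample in the labels. The heterozygous mice carry Chd8+/del5, a germline mutation of Chd8, which encodes a chromatin remodelling enzyme, and the wild-type mice were their littermates. Chd8 is thus mutated in every cell of those mice, not in microglia alone.

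The table holds 44 libraries, 8 of e12.5, 9 of e14.5, 10 of e17.5, 11 of P0 and 6 of adults. The names of the libraries give the stage and a digit code that the labels do not explain, so no library was given a genotype, the stages were not split by genotype and wild-type and heterozygous mice are not compared. Stages were therefore described by the lowest, median and highest library, without p-values. Below, a gene is called higher or lower at a stage only where its range over libraries does not overlap that of the other stage. Whether each library came from its own animal is not said in the labels. A library's number is its place among the columns of its stage and serves as a name alone.

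Microglia arise from yolk sac macrophages that enter the brain in the embryo, and they depend on the receptor encoded by Csf1r and on its ligands Csf1 and Il34. The fractalkine receptor Cx3cr1 and the ADP receptor P2ry12 let them respond to neurons and to damage, and Tyrobp passes on the signal of Trem2. C1qa, C1qb and C1qc encode the 3 chains of C1q, the first component of the classical complement pathway, which in the brain is made mostly by microglia and tags synapses and debris for removal. Tmem119 and P2ry12 are widely used to tell mature microglia from other macrophages, which also express Csf1r, Tyrobp and Itgam.

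The 3 C1q genes lie side by side in RefSeq's gene order of the mouse genome (assembly GRCm38.p6), with C1qc between C1qb and C1qa and no other protein-coding gene between them. Promoter sequences, from 250 bases before to 50 bases after the gene's start, were found in RefSeq for 5 of the 9 genes: C1qb, C1qc, P2ry12, Cx3cr1 and Itgam. Those of the neighbours C1qb (chr4:136886151-136886450, minus strand) and C1qc (chr4:136892865-136893164, minus strand) are shown because the levels of their transcripts had the highest correlation of any pair of the 9 genes, as given below. Capitals mark an exact match to GAGGAAGT, a form of the site known for the myeloid factor PU.1, here read on the other strand as ACTTCCTC.
C1qb: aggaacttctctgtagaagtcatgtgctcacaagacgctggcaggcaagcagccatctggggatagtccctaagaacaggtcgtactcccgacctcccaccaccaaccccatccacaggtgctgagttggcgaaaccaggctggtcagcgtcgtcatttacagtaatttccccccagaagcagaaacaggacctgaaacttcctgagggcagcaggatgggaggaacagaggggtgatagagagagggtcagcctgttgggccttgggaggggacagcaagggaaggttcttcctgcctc
C1qc: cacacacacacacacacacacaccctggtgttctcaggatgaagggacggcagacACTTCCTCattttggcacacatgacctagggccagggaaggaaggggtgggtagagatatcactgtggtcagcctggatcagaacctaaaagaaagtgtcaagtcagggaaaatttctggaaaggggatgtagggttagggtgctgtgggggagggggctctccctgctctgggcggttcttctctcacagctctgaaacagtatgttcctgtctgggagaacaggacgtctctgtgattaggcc
The match in the C1qc promoter begins at position -195 from the gene's start. It was the only exact match in the 5 promoters, searched on both strands. Sequences that differ from GAGGAAGT in any base were not searched for. Of all 32851 promoters of this length, 1052 (3.2%) hold a match. A match is a description of letters, not of binding.

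At e12.5, the earliest stage, the C1q genes, Tyrobp, Csf1r and Tmem119 were the most abundant of the 9, and Itgam was near the bottom of the table. In the adult, all 9 were at the highest median of the 5 stages. Levels are in log2 RPKM (reads scaled by gene length and by library size), so they can be compared between genes, and a difference of 1 is a factor of 2 in RPKM. The summed level of the 9 genes had a median of 32.4 RPKM at e12.5 (25.9 to 50.6 over libraries), 61.3 at e14.5 (47.7 to 81.9), 71.9 at e17.5 (56.9 to 80.5), 80.5 at P0 (68.2 to 114) and 297 in the adult (191 to 372). In bulk forebrain, a change in the number of microglia and a change in the RNA per microglial cell cannot be told apart.

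**Figure D1:**
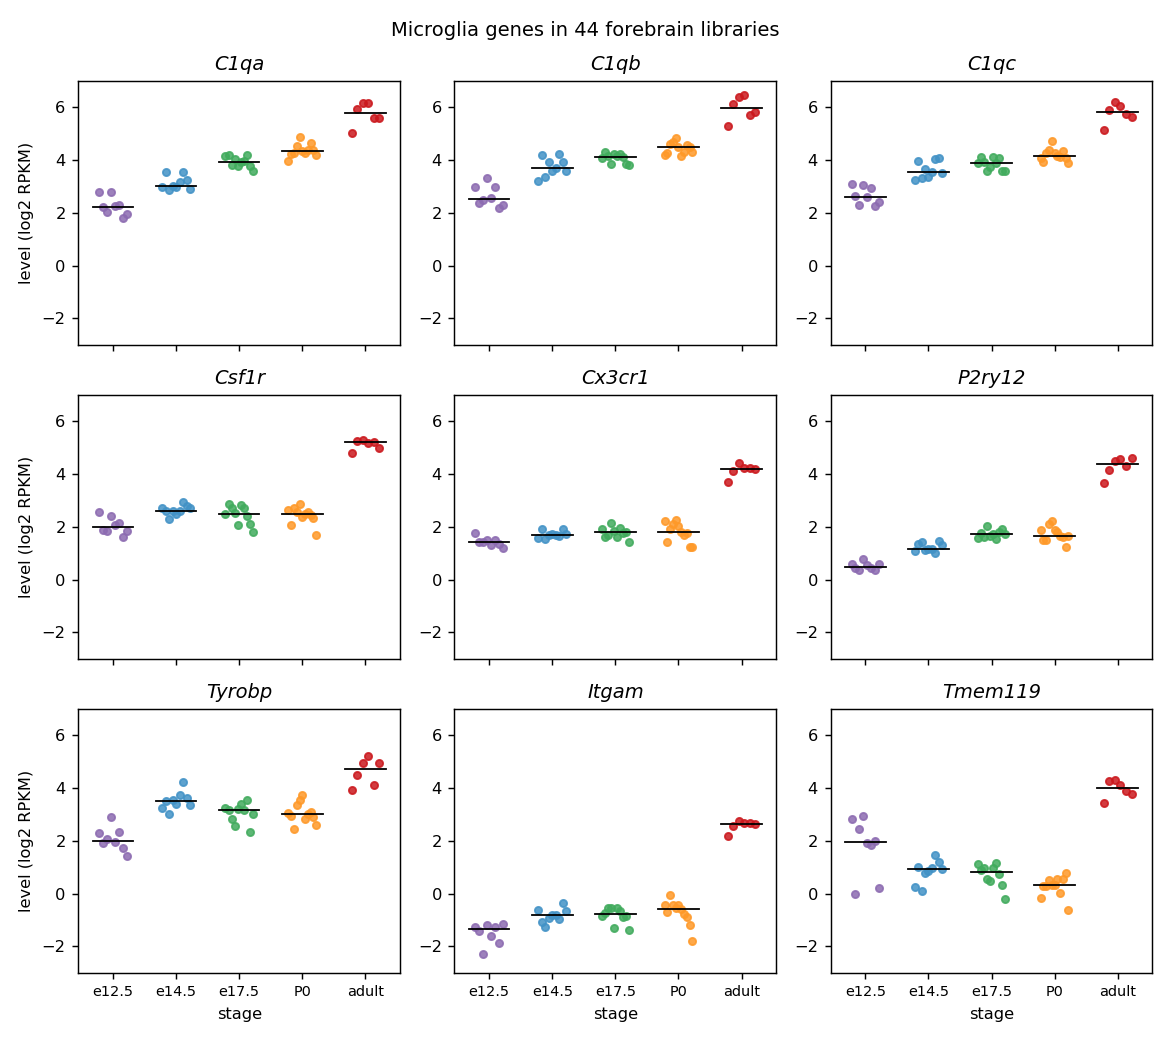
Level of each of the 9 genes (log2 RPKM, vertical axis) in each library (points) at the 5 stages (horizontal axis), with the stage median as a black line. All 6 adult libraries lie above all 11 P0 libraries in every panel, the medians of the C1q genes go up at every stage, and Tmem119 spreads from -0.00 to 2.94 at e12.5.

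Adult library 1 stood apart from the other adults. It was the lowest adult library for all 9 genes, against 3157 of 12102 genes in all (26.1%), and it lay below the median of the other 5 by 0.43 (Csf1r, -0.43) to 1.0 (Tyrobp, -1.0) on the log2 scale. Its 8 markers of dividing cells and progenitors summed to 388 RPKM, against 48.2 to 76.4 in the other 5 libraries, and its 4 markers of border macrophages, the macrophages of meninges and vessels, summed to 9.38 RPKM against 3.63 to 4.52. The part of these in its microglia values was not tested. Without it, all 9 genes were still higher in the adult than at P0. That was bound to hold, since leaving out a library can only narrow a range.

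Relative depth, read from the steps between low values, could be had for 26 of the 44 libraries and spanned 0.60 to 2.24 times their middle. The values of the 10 libraries of e17.5 do not lie on such steps, so they are less surely on one scale with the rest. Sequencing was paired-end (100 bp) at e12.5 and single-end (50 bp) at the other stages, so stage and read type cannot be told apart between e12.5 and e14.5.

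The C1q genes had the largest increases in median between e12.5 and birth. C1qa had a level of 1.79 to 2.81 at e12.5 (median 2.23), 2.86 to 3.53 at e14.5 (3.02), 3.58 to 4.2 at e17.5 (3.95), 3.96 to 4.86 at P0 (4.34) and 5.02 to 6.18 in the adult (5.78). Only between e17.5 and P0 did its ranges overlap between successive stages. C1qb went from 2.18 to 3.32 at e12.5 (median 2.54) through 3.23 to 4.25 at e14.5 (3.71), 3.80 to 4.30 at e17.5 (4.13) and 4.17 to 4.84 at P0 (4.50) to 5.29 to 6.49 in the adult (5.98). Its successive ranges overlapped at each step before the adult. C1qc had medians of 2.62, 3.56, 3.89, 4.16 and 5.82 at the 5 stages, with ranges of 2.26 to 3.11, 3.25 to 4.09, 3.60 to 4.14, 3.88 to 4.71 and 5.14 to 6.22, and it was higher at e14.5 than at e12.5.

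The 3 chains stayed within 1 log2 unit of each other in every library. C1qb exceeded C1qa by a median of 0.36 at e12.5 and 0.66 at e14.5, in all 8 and all 9 libraries, and by 0.15 at e17.5 and 0.12 at P0, in 7 of 10 and 7 of 11 libraries. In the adult it was above C1qa by 0.23, in 6 of 6 libraries. C1qc minus C1qa changed sign: its median was 0.39 at e12.5 and 0.48 at e14.5 (0.27 to 0.84), but -0.08 at e17.5 (-0.42 to 0.19), -0.16 at P0 and 0.04 in the adult. The ranges of this difference at e14.5 and e17.5 did not overlap, so C1qa gained on C1qc within the embryo, with the doubt above on the scale of e17.5. The range at P0 (-0.31 to 0.11) also lay apart from that at e14.5.

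The receptor Csf1r changed little from e14.5 to birth. Its level was 1.62 to 2.56 at e12.5 (median 1.98), 2.28 to 2.95 at e14.5 (2.61), 1.80 to 2.87 at e17.5 (2.49), 1.69 to 2.88 at P0 (2.50) and 4.79 to 5.31 in the adult (5.20). The adult libraries stood far above the rest, and all ranges before them overlapped from one stage to the next. Cx3cr1 behaved alike, with ranges of 1.20 to 1.78, 1.54 to 1.91, 1.43 to 2.13, 1.22 to 2.25 and 3.71 to 4.42 and medians of 1.43, 1.71, 1.80, 1.80 and 4.21. P2ry12 had a different early course, with 0.36 to 0.77 at e12.5 (median 0.50), 0.99 to 1.46 at e14.5 (1.16), 1.55 to 2.04 at e17.5 (1.73), 1.25 to 2.24 at P0 (1.66) and 3.66 to 4.63 in the adult (4.39). It was higher at each of e14.5 and e17.5 than at the stage before.

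Tyrobp, the adaptor with a signalling motif for immune receptors, was highest before birth at e14.5. It went from 1.43 to 2.89 at e12.5 (median 2.01) to 3.02 to 4.22 at e14.5 (3.50), with no overlap. It then had medians of 3.17 at e17.5 (2.34 to 3.56) and 3.01 at P0 (2.46 to 3.75), overlapping e14.5, and 4.72 in the adult (3.95 to 5.24). Itgam, the CD11b chain of complement receptor 3, was the lowest of the 9 genes at every stage. Its medians were -1.33 (-2.28 to -1.15), -0.83 (-1.28 to -0.36), -0.79 (-1.40 to -0.54), -0.60 (-1.79 to -0.06) and 2.65 (2.18 to 2.76), so that its only step without overlap was into the adult.

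Tmem119 had a lower median at e14.5 than at e12.5, the other 8 genes a higher one; with quantile normalization Itgam was lower too (-0.29), again with overlap. Its level was -0.00 to 2.94 at e12.5 (median 1.96), 0.11 to 1.48 at e14.5 (0.92), -0.20 to 1.14 at e17.5 (0.82), -0.62 to 0.79 at P0 (0.32) and 3.42 to 4.30 in the adult (3.99). No step before the adult was without overlap. Among all genes its level stood at the 19.2nd percentile at e12.5, at the 4.18th at P0 and at the 56.7th in the adult.

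The order of the levels changed with stage. At e12.5 the order by median was C1qc, C1qb, C1qa, Tyrobp, Csf1r, Tmem119, Cx3cr1, P2ry12 and Itgam, where Csf1r exceeded Tmem119 in 4 of 8 libraries, so that those neighbours did not differ beyond their spread. At P0 it was C1qb, C1qa, C1qc, Tyrobp, Csf1r, Cx3cr1, P2ry12, Tmem119 and Itgam, and P2ry12 lay below Cx3cr1 in only 7 of 11 libraries. In the adult Csf1r had passed Tyrobp in 5 of 6 libraries and P2ry12 had passed Cx3cr1 in 5 of 6. Among all 12102 genes described, C1qb moved from the 27.4th percentile of level at e12.5 to the 69.4th at P0 and the 89.3rd in the adult, while Csf1r stood at the 19.5th, 26.8th and 80th and Itgam at the 2.85th, 1.39th and 28.2nd.

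Between e12.5 and e14.5, 4 of the 9 genes were higher and 0 lower, by 1.49 (Tyrobp), 0.94 (C1qc), 0.79 (C1qa) and 0.66 (P2ry12). Over all 12102 genes, 23.1% were higher and 22.3% lower, and the median difference was 0.66 for the 9 genes and 0.03 for all. Between e14.5 and e17.5, C1qa (0.92) and P2ry12 (0.58) were higher and 0 of the 9 lower, against 13.1% higher and 12.1% lower over all genes. The median differences were 0.09 and -0.03. Between e17.5 and P0, 0 of 9 were higher or lower, against 4.89% and 6.28%, with medians of 0.00 and -0.00. From e14.5 to P0, both read as single ends, C1qa alone was higher, by 1.31, and 0 were lower, against 22.7% and 23.1% of all genes, with medians of 0.22 and -0.04.

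In the e12.5 libraries, 5 red blood cell genes summed to 1687 to 4589 RPKM, against 63.2 to 529 at e14.5. RPKM is a share of each library, and the part of these genes in the differences from e12.5 was not tested.

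All 9 genes were higher in the adult than at P0 and 0 lower, against 29.3% higher and 25.2% lower of all genes. The adult medians exceeded those of P0 by 3.67 for Tmem119, 3.26 for Itgam, 2.73 for P2ry12, 2.71 for Csf1r, 2.41 for Cx3cr1, 1.71 for Tyrobp, 1.66 for C1qc, 1.48 for C1qb and 1.44 for C1qa. The median over the 9 was 2.41, against -0.01 over all genes, and 2.43 without adult library 1. Some genes share their lowest value between libraries, such as -2.99 for Hba-x, from which a prior count was inferred. Its size is not given in the sources used here, so differences from low levels, as of Itgam, may be understated by an unknown amount. The makeup of the tissue moved too: 10 oligodendrocyte genes summed to 104 to 152 RPKM at P0 and 958 to 2257 in the adult, and 8 genes of dividing cells and progenitors to 710 to 934 and 48.2 to 388. The part of those in the differences was not tested.

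How much of the way from e14.5 to the adult was covered by birth differed from gene to gene. At P0, C1qa had reached 47.7% of its log2 difference between e14.5 and the adult, C1qb 34.8%, C1qc 26.6% and P2ry12 15.5%. Itgam had reached 6.40% and Cx3cr1 3.69%. Csf1r (-4.41%), Tmem119 (-19.4%) and Tyrobp (-40.4%) stood lower at P0 than at e14.5 by median, with overlapping ranges.

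Against Csf1r in the same library, the C1q genes went up by median until birth and were lower in the adult. The ranges overlapped at each step before birth. The mean log2 level of the 3 C1q genes minus that of Csf1r was 0.37 to 0.63 at e12.5 (median 0.44), 0.42 to 1.29 at e14.5 (0.90), 1.24 to 1.86 at e17.5 (1.46), 1.43 to 2.43 at P0 (1.98) and 0.37 to 1.04 in the adult (0.73). The ranges of P0 and of the adult lay apart, with the adult median 1.26 below (-1.26). With each P0 or adult library left out in turn, the difference of the medians was -1.26 to -1.23. The ranges had to stay apart in this, as they can only narrow. A difference within a library is the same for few and for many cells that express both genes in a fixed ratio, but the genes need not come from the same cells. This measure was chosen after the values had been seen, and no other reference gene was used. From P0 to the adult, the median of Csf1r gained 2.71 and that of Tyrobp 1.71, against 1.44 to 1.66 for the C1q genes.

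Other genes showed other courses against Csf1r. Tmem119 minus Csf1r was higher in the adult (-1.37 to -1.0, median -1.15) than at P0 (-2.82 to -1.55, median -2.06), and so was Itgam minus Csf1r, with medians of -3.10 at P0 and -2.55 in the adult. For P2ry12 (-0.70 and -0.87), Cx3cr1 (-0.64 and -0.97) and Tyrobp (0.66 and -0.56) the ranges at P0 and in the adult overlapped. Mrc1, the mannose receptor that marks border macrophages, was lower against Csf1r in the adult, with medians of -1.20 and -5.73.

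**Figure D2:**
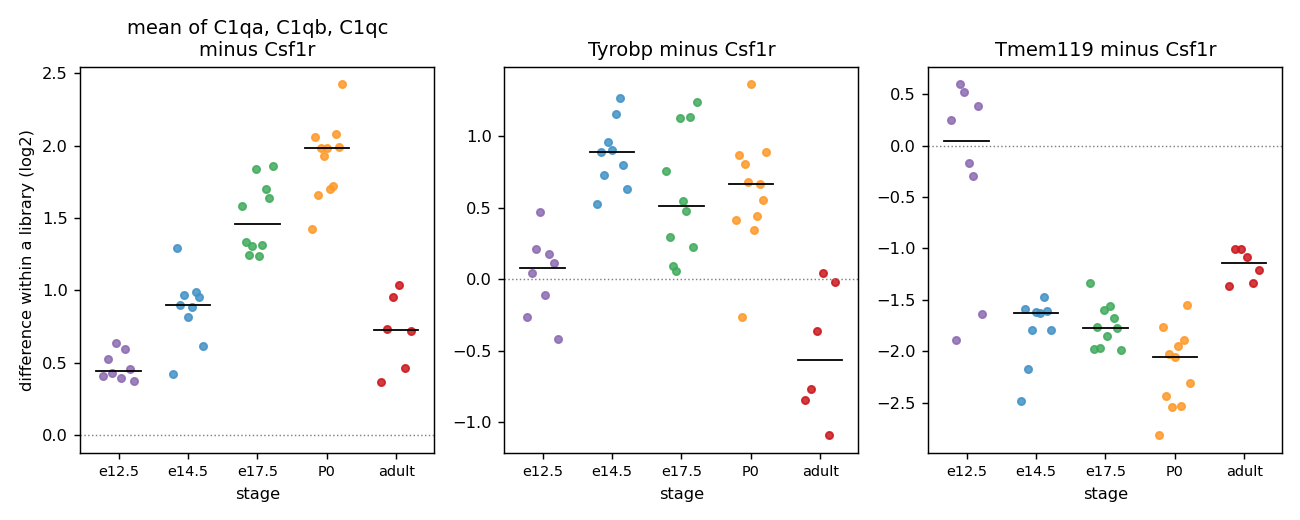
Log2 level of the C1q genes (mean of 3), Tyrobp and Tmem119 minus that of Csf1r in the same library (vertical axes, each with its own scale), by stage, with libraries as points and stage medians as black lines. The C1q genes stand 1.43 to 2.43 above Csf1r at P0 and 0.37 to 1.04 above it in the adult, while Tmem119 stands nearer to Csf1r in the adult than at P0.

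The ligands were higher in the adult together with their receptors, and Il34 and Cx3cl1 were already higher at earlier steps. Il34, a ligand of the Csf1r receptor made mostly by neurons, had medians of -2.80 at e12.5 (-3.89 to -1.52), -0.38 at e14.5 (-0.75 to 0.52), 1.15 at e17.5 (0.38 to 1.65), 1.16 at P0 (0.54 to 1.74) and 5.49 in the adult (4.94 to 5.72). It was higher at e14.5 than at e12.5, at P0 than at e14.5 and in the adult than at P0. Csf1, the other ligand, had medians of 1.31, 1.52, 1.83, 1.78 and 2.54. Like Csf1r, it was higher only in the adult, with overlapping ranges at each step before. Il34 minus Csf1 within a library was -4.02 at e12.5 by median and -0.54 at P0, where it was below 0 in 11 of 11 libraries. In the adult it was 2.92 (2.47 to 3.02), above 0 in 6 of 6.

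Cx3cl1, which encodes fractalkine, a membrane-bound chemokine of neurons, had medians of 2.35, 3.0, 3.98, 5.01 and 8.84, and it was higher at e14.5, e17.5 and the adult than at the stage before. Its receptor Cx3cr1 stood at 1.43 to 1.80 by median until birth. Within a library, the log2 RNA level of Cx3cl1 exceeded that of Cx3cr1 by medians of 0.97 at e12.5, 1.29 at e14.5 and 2.06 at e17.5. The median was 3.19 at P0 and 4.72 in the adult. Amounts of the 2 proteins were not measured here. The ranges of this RNA difference were apart between e14.5 (1.04 to 1.59) and e17.5 (1.78 to 3.23) and between P0 (2.99 to 3.37) and the adult (4.33 to 4.97).

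Trem2, the lipid receptor that signals through Tyrobp, lay below Tyrobp in all 44 libraries. Its medians were -0.52, 1.14, 0.75, 1.64 and 3.61, higher at e14.5 than at e12.5 (1.66) and in the adult than at P0 (1.97). Trem2 minus Tyrobp was -2.71 at e12.5, -2.36 at e14.5, -2.38 at e17.5, -1.66 at P0 and -1.23 in the adult by median.

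**Figure D3:**
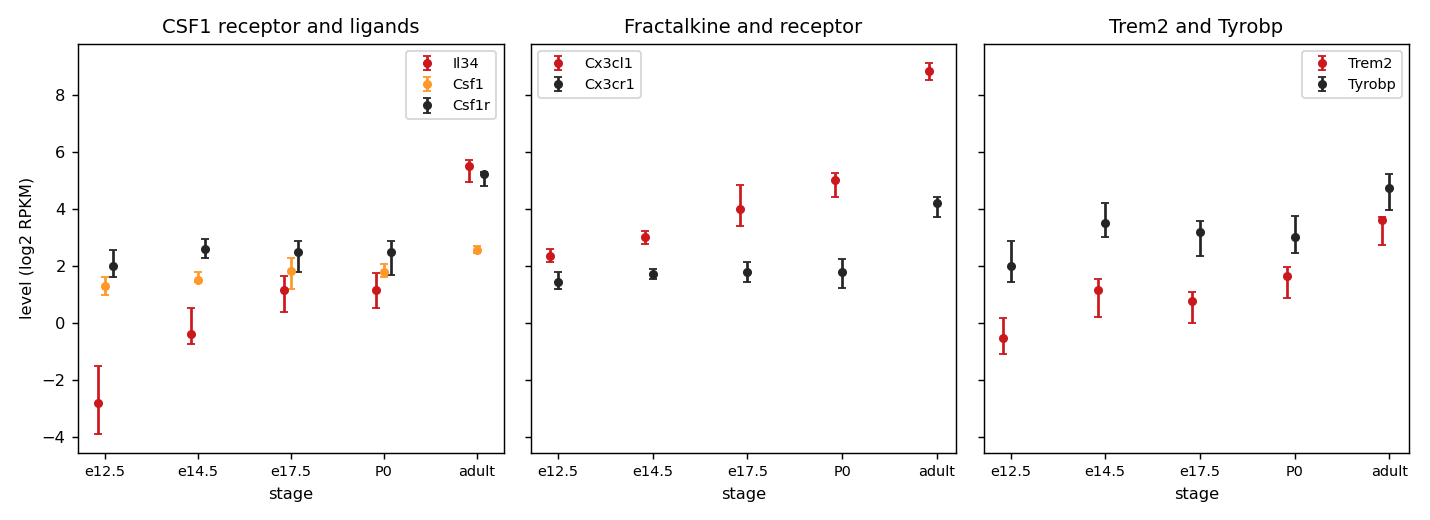
Level (log2 RPKM, vertical axis) of Csf1r with its ligands Il34 and Csf1, of Cx3cr1 with its ligand Cx3cl1, and of Tyrobp with its partner Trem2, at the 5 stages, with points at the stage median and bars from the lowest to the highest library. Il34 lies below Csf1 by median at every stage before the adult and above it in the adult, and Cx3cl1 moves away from Cx3cr1 from e17.5 on.

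Of the list of 26 receptor partners, ligands and signalling genes, 16 were analysed. In the adult 14 were higher than at P0 and 2 lower, against 29.3% and 25.2% of all genes, with a median difference of 1.15. The highest differences were those of Il34 (4.33), Cx3cl1 (3.82), Mertk (3.37), a receptor for engulfment of dying cells, and Sirpa (2.12), the receptor of the signal that spares cells from engulfment. The lower ones were Tgfbr1 (-1.58), a receptor of TGF-beta, on which microglia depend, and Cd200 (-1.14), a neuronal ligand that quiets microglia. Tgfbr2, the partner of Tgfbr1 in the receptor, was higher (0.64). Tgfbr1 had medians of 5.65 at e12.5 and 2.59 in the adult, against 1.98 and 5.20 for Csf1r. Which cells of the forebrain the RNA of the genes in this list came from was not tested. From e14.5 to P0 the list had 6 higher and 2 lower genes, against 22.7% and 23.1% of all genes, with a median of 0.21.

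Other genes of microglia identity were counted from a list of transcription factors and surface proteins. Of 22 listed, 15 were analysed. In the adult 9 were higher than at P0 and 2 lower, against 29.3% and 25.2% of all genes, with a median of 1.36. Selplg (4.48), Siglech (3.41) and P2ry13 (2.79) had the largest differences. Sall3 (-1.72) and Sall1 (-0.59) were lower. Sall1, a transcription factor of microglia in the adult brain, is also a gene of neural progenitors in the embryo, and its median went from 4.86 at e12.5 to 3.23 at P0 and 2.64 in the adult. Siglech and P2ry13 had also been higher at e14.5 than at e12.5.

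Of 30 genes known from myeloid cells and leukocytes in general, 12 were analysed. In the adult 6 were higher and 1 lower, against 29.3% and 25.2% of all genes, with a median of 0.94. Ncf1 (1.75), Laptm5 (1.54) and Unc93b1 (1.40) were among the higher ones and Arhgdib (-1.40) was the lower one. Of 20 lysosome and phagocytosis genes 19 were analysed, with 8 higher (42.1%) and 1 lower (5.26%), against the same shares of all genes. Their median was 0.48, and they were led by Ctss (2.72), the cathepsin of microglia, and Cst3 (2.08). Cd9 (-1.12) was lower.

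Complement genes beyond C1q are known from several cell types. Of 26 listed, 9 were analysed, and 7 were higher at e14.5 than at e12.5 and 6 at P0 than at e14.5, with 0 lower in either, where 23.1% and 22.7% of all genes were higher and 22.3% and 23.1% lower. In the adult 2 were higher than at P0 and 1 lower, no more than the 29.3% and 25.2% of all genes: Clu (2.97), an inhibitor of complement, Sez6l2 (1.43) and Sez6 (-1.07). Neither C3 nor C4b, the next steps of the classical pathway, was analysed.

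A list of 17 genes is known from microglia of the first days after birth and from activated microglia, and 5 of it were analysed: Apoe, Spp1, Lpl, Igf1 and Fabp5. All 5 were higher at P0 than at e14.5, by 2.88, 1.59, 1.43, 0.90 and 0.76, against 22.7% of all genes. In the adult 0 were higher than at P0 (1, Apoe, without adult library 1), and Fabp5 (-2.48) and Lpl (-0.93) were lower. Over all genes, 29.3% were higher and 25.2% lower (31.2% and 30% without adult library 1). Each of the 5 analysed genes of the list is also expressed by other brain cells, such as astrocytes for Apoe and progenitors for Fabp5.

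Markers of other blood and vessel cells were set beside these. The 4 analysed markers of border macrophages, Mrc1, F13a1, Lyve1 and Stab1, had a median difference of -1.84 between P0 and the adult, and their calls rested on adult library 1. With that library, 0 of 4 were higher or lower, against 29.3% and 25.2% of all genes. Without it, 3 of 4 (Mrc1, F13a1 and Lyve1) were lower and 0 higher, against 30% lower and 31.2% higher of all genes in the same libraries, while all 9 microglia genes were higher. Their sum was 5.66 to 15.8 RPKM at P0 and 3.63 to 4.52 in the adult without that library, which had 9.38. Of 17 markers of monocytes, neutrophils and lymphocytes, Ly6c1 alone was analysed, which endothelial cells express too; its median was 1.21 at P0 and 4.21 in the adult. Of 13 endothelial and mural genes, 3 were higher (23.1%) and 1 lower (7.69%), below the 29.3% and 25.2% of all genes. Without adult library 1, 4 were higher (30.8%) and 2 lower (15.4%), against 31.2% and 30% of all genes. The 13 genes summed to 119 to 169 RPKM at P0 and 144 to 178 in the adult.

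**Figure D4:**
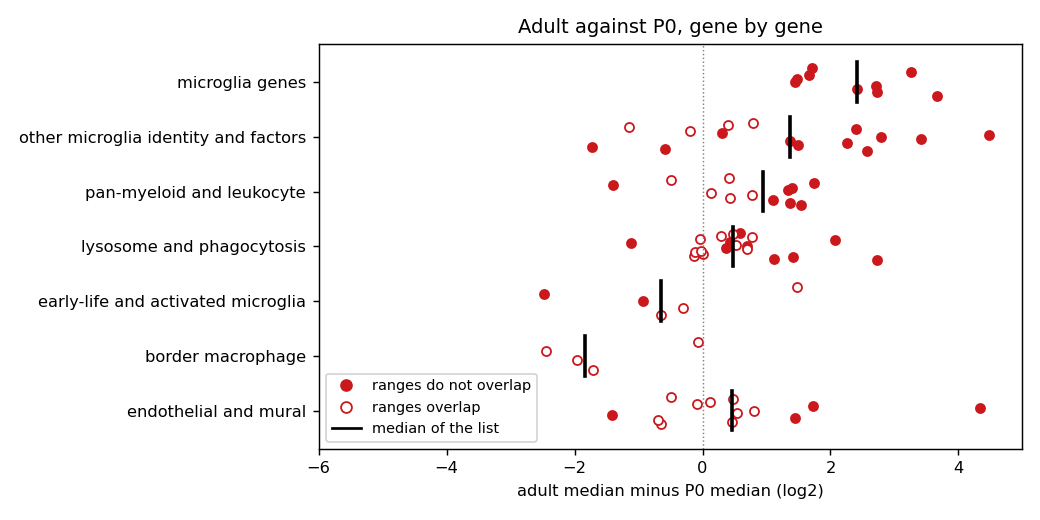
Adult median minus P0 median (log2, horizontal axis) for each gene of 7 lists (rows), with filled points where the ranges over libraries do not overlap, open points where they do, and the median of the list as a black line. All 9 microglia genes lie above 1.4 (C1qa, 1.44), while the 4 border macrophage genes are open and have a median of -1.84; without adult library 1, 3 of those 4 (Mrc1, F13a1 and Lyve1) no longer overlap and are lower.

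Tmem119 spread more at e12.5 than the other 8 genes did at any stage. Its 8 libraries of that stage read 2.81, -0.00, 2.44, 2.94, 1.91, 1.84, 2.01 and 0.21 in the order of the table, so that libraries 2 and 8 were far below the other 6. A list of 12 genes of skull and meningeal mesenchyme, chosen after these values had been seen, had mean levels of 4.35, 2.19, 3.77, 4.57, 3.33, 3.75, 3.65 and 2.46 in the same libraries. The libraries low in Tmem119 were thus the lowest in this list. Col1a1, the main collagen of bone and skin, read 3.65 and 4.06 in libraries 2 and 8 and 5.19 to 6.80 in the other 6.

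Since the 8 libraries fall into these 2 clusters, the relation is given within the 6 others, where Pearson's r between Tmem119 and the mean of the 12 genes was 0.91 and Spearman's rho 0.83. It is a description of 6 libraries that share their processing, with no test. Among the other 8 microglia genes, the widest range at e12.5 was that of Tyrobp, 1.43 to 2.89. Over all 8 libraries, r with the same mean was 0.98 for Tmem119, 0.76 for Tyrobp, 0.74 for C1qb and 0.63 for Cx3cr1. It was 0.62 for Csf1r, 0.60 for C1qa, 0.50 for C1qc, 0.31 for P2ry12 and -0.07 for Itgam. For the other 8 genes, r within the 6 libraries was not computed. At e14.5, r for Tmem119 was 0.67 over 9 libraries and 0.56 without the 2 libraries farthest from the median of the mesenchyme mean. At P0, r was 0.60 over 11 libraries, and 0.63 without its 2 farthest libraries. At e17.5, r was 0.82 over 10 libraries, but 0.32 without libraries 5 and 10, on which it rests. A positive r was not particular to Tmem119 at these stages, though its r at e12.5 was the highest of the 9. At e14.5, r was 0.84 for Csf1r, 0.73 for Tyrobp and 0.66 for Itgam, but -0.46 for P2ry12. At e17.5 it was 0.82 for Csf1r, 0.81 for Itgam and 0.72 for C1qa, but -0.06 for Tyrobp and -0.00 for P2ry12. At P0 it was 0.58 for C1qb and 0.56 for C1qa, but -0.33 for P2ry12, -0.23 for Tyrobp, -0.21 for Cx3cr1 and -0.04 for Itgam. Tmem119 is known from bone-forming cells as well as from microglia, and the part of mesenchyme in its embryonic level was not tested. In the adult, r for Tmem119 was negative, -0.77 over 6 libraries and -0.70 over the 4 left without libraries 1 and 5. With all adult libraries, r was negative for all 9 genes, from -0.88 (Csf1r) to -0.33 (Tyrobp). The mesenchyme mean in the adult was 0.20 to 0.73 without library 1 and 1.81 in it, at Tmem119 levels of 3.77 to 4.30 and 3.42.

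**Figure D5:**
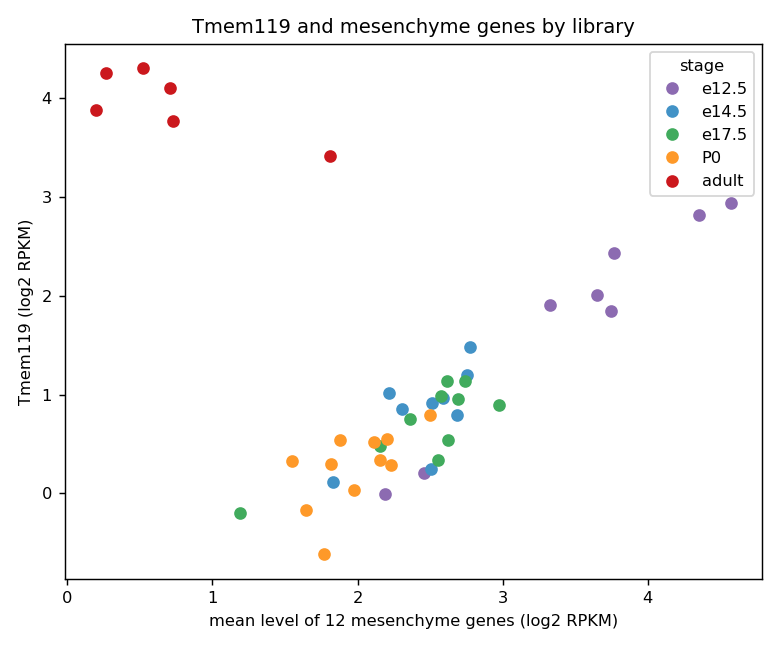
Tmem119 (log2 RPKM, vertical axis) against the mean level of 12 mesenchyme genes (log2 RPKM, horizontal axis) in each of the 44 libraries, coloured by stage. At e12.5 the libraries run from -0.00 at a mean of 2.19 to 2.94 at a mean of 4.57, while the adult libraries stand apart at 3.42 to 4.30 with means of 0.20 to 1.81.

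Over all 44 libraries, the 36 pairs of the 9 genes had Pearson's r of 0.39 to 0.99 (median 0.83), where the libraries share their stages. After the stage medians were taken away, r was 0.02 to 0.87 (median 0.50). The C1q pairs were the most alike within stages, with 0.85 to 0.87, the highest being C1qb and C1qc. C1qb and Tyrobp had 0.71 and Csf1r and C1qc 0.72. The pairs with Tmem119 had 0.02 (P2ry12) to 0.59 (C1qb), where the wide spread of Tmem119 at e12.5 weighs most. These values describe libraries that share depth and tissue makeup, and none was tested.

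The genes most like the mean of the 9 over all 44 libraries, among 11799 others with a mean level of at least 0, included Ctss (r of 0.98) and Hlf (0.98), followed by 4632428N05Rik, Camk2n1, Napa, Afg3l2, B3gnt1, Itm2c and Camkk1 (0.97). This measure mostly follows the step into the adult, and neuronal genes such as Camk2n1, an inhibitor of the kinase CaMKII, share it. Within stages the most alike were Nbl1 (0.82), Fcrls (0.82), Cyth4 (0.81), Unc93b1 (0.80) and Apoe (0.80), then S100a6, Anxa3, Fkbp9, Lgmn and Trf (0.78 to 0.80). Fcrls is a known gene of microglia, and Cyth4 and Unc93b1 of white blood cells. For Tmem119 alone, the closest within stages were Nbl1 (0.85), Fkbp9 (0.83), Anxa6 (0.83), Igfbp4 (0.82) and Serpinf1 (0.81), then Tgfbi, Olfml3, Thbs2, Pcolce and Cxcl12 (0.79 to 0.81). Of these, Serpinf1, Tgfbi, Thbs2 and Pcolce encode secreted proteins of the extracellular matrix or its processing. Olfml3 belongs to the list of other microglia identity genes used above. Tmem119 spread most at e12.5, where libraries 2 and 8 (-0.00 and 0.21) lay far below the others. Its r values therefore weigh that stage most, and none was computed without those libraries.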

How the data were processed

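RNA was measured in bulk forebrain at 5 stages. Per the labels' protocols, polyadenylated RNA was made into stranded libraries. The log2 values of the deposited table are RPKM that the authors computed per gene in 44 libraries and put on a log scale, per the labels; the base 2 was read from the values. Per the submitters' processing notes, reads were treated with bcl2fastq and STAR 2.4.2a on the mm9 build. No source used here gives the counter, the annotation, the gene filter, the prior count or a normalization between libraries. Read counts and depth are therefore unknown beyond the relative depths in the report. Chd8 binding data were not used here.

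Of 12158 genes, 56 with a mean over all libraries of -2 or less were left out, and 12102 were described; all 9 microglia genes stayed in. Stages were taken from the names of the libraries, with no genotype, and compared in 5 pairs by medians and by whether ranges overlap, with no test and no p-value. The comparison was tested on simulated data.

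The genes named are the 9, up to 4 per list with the largest differences among those without overlap, their ligands and partners, and the 10 most alike by Pearson's r. Other genes named as examples were chosen after their values were seen. The genes, the 15 lists and the comparisons were chosen with earlier results of these data known. Alternatives were median centring, quantile normalization, other filters, interquartile ranges, means and leaving out each library. A gene that the rule would name is not reported here. Promoters came from RefSeq. No pair of libraries of a stage held identical values. Python 3.11.15, pandas 2.3.3 and numpy 2.4.6 were used.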

Additional observations from a re-analysis of the deposited data

Results flagged for a closer look

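Adult library 1 had an Itgam level of 2.18 log2 RPKM, far from the other 5 adults, of which the nearest was 2.56. It was the one such library among 36 sets of 1 gene and 1 stage with 10 or fewer libraries. Chance alone would give about 1 in 20 sets, 1.8 of 36. The same library was the lowest adult for the other 8 genes as well.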

How the results depend on the processing

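With interquartile ranges in place of full ranges, more genes were called at each early step. Between e12.5 and e14.5, 8 of the 9 genes were then higher and 1 (Tmem119) lower, against 40.6% and 36.9% of all genes. Between e14.5 and e17.5, 2 were higher, as with full ranges, and 1 (Tyrobp) lower, against 30.8% and 34.7%. Between e17.5 and P0, 3 (the C1q genes) were higher and 0 lower, against 27.7% each, and between e14.5 and P0, 4 were higher and 2 lower, against 36.8% and 40.9%. With each library left out in turn, the median difference between e17.5 and P0 ran from -0.0243 to 0.0551 and so turned sign around 0.00, and 1 to 2 genes were higher at P0 than at e14.5, where P2ry12 joined C1qa without P0 library 10. With a filter at a mean above 0, Itgam dropped out and the median difference between P0 and the adult was 2.06 over 8 genes. All 9 genes were higher in the adult with median centring and quantile normalization too, although all genes then had 26.1% higher against 29.5% lower and 25.6% against 29.7%. With quantile normalization P2ry12 overlapped between e12.5 and e14.5 (0.29), and the overlapping differences of Itgam were -0.29 there, -0.44 from e14.5 to e17.5 and -0.32 from e14.5 to P0. Between e12.5 and e14.5, C1qb was higher without e12.5 library 4 or e14.5 library 1, Cx3cr1 without e12.5 library 1 and Itgam without e14.5 library 3. Of 1111 recomputed gene values 0 changed sign while called. For a called gene, only median centring and quantile normalization could have turned the sign. The other settings keep the order of ranges that do not overlap. No paired analysis was possible because the libraries carry no replicate numbers that the labels explain.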

Other observations

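The names of the 10 libraries of e17.5 hold 2 runs of numbers, from 1 to 5 and from 158 to 163. Between the 5 libraries of each run, 0 of the 9 microglia genes had ranges that did not overlap, and 1 of 12102 genes in all did.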
